A study of Mus musculus with 8 samples.

Results

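Cd44 and the genes of hyaluronan metabolism were followed in murine oviductal epithelial (MOE) cells, a mouse line of FVB background. The oviduct is the mouse counterpart of the fallopian tube. The set held 8 genes chosen by symbol: the receptors Cd44 and Hmmr, the synthases Has1, Has2 and Has3, the hyaluronidases Hyal1 and Hyal2, and the hyaluronan-binding protein gene Tnfaip6. All 8 were among the 23337 genes in the deposited values, and 5 of them (Cd44, Has3, Hyal1, Hyal2 and Hmmr) passed the filter on low values, as did 11820 genes in all. Has1, Has2 and Tnfaip6 did not pass and are described by their reads. RNA was sequenced in 4 libraries of cells on 2D collagen and 4 of cells on 3D collagen gels, after 6 h in MOE medium lacking EGF, which both groups shared. The labels describe 1 cell line and name no separate cultures. The replicate error behind each p-value is therefore that of these libraries and may be technical. In such bulk RNA, fewer cells expressing a gene and less of its RNA per cell cannot be told apart.

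Hyaluronan is a long unsulfated sugar chain of the extracellular matrix that is made at the plasma membrane by the Has enzymes and extruded as it grows. CD44 is its main cell-surface receptor and links the matrix to the actin cytoskeleton through ezrin, radixin and moesin. HMMR, also called RHAMM, binds hyaluronan and also works inside the cell at the mitotic spindle. HYAL2 is anchored at the cell surface and cuts long chains into fragments, which HYAL1 degrades further in lysosomes. TSG-6, the product of Tnfaip6, moves protein chains onto hyaluronan and is secreted in the expanding cumulus around the oocyte.

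Depth ranged from 15692699 to 25862036 reads per library. Levels are given as normalized counts (reads divided by 1 size factor per library). The keratin gene Krt8 had 27443 to 40598 on 2D and 16941 to 24341 on 3D collagen. The Mullerian transcription factor gene Pax8 lay between 7427 and 11569, and the epithelial adhesion gene Epcam between 0 and 29.9. The leukocyte gene Ptprc did not exceed 3.73, the fibroblast gene Lum 1.13 and the endothelial gene Pecam1 7.86. Of 7 leukocyte markers, 5 were under 10 normalized counts in every library. The list summed to 20.6 to 39.7 CPM (reads scaled to a fixed library total) on 2D and 26.3 to 38.9 on 3D collagen. Only 2 of 7 fibroblast markers and 3 of 5 endothelial markers were under 10 in every library. The fibroblast list summed to 3.25 to 19.4 CPM on 2D and 4.13 to 17.2 on 3D collagen. The endothelial list summed to 14.2 to 29.3 CPM on 2D and 17.2 to 38.9 on 3D collagen. Sums over 8 intestine genes were highest in 2D replicate 2 (20.4 CPM) and 3D replicate 1 (9.502), and those over 6 liver genes in the same libraries (20.1 and 20.9 CPM). The libraries numbered 4 stood apart from the others of their group in mitosis genes, as given with Hmmr below.

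Cd44 was the 1 gene of the set that changed on 3D collagen, and it rose. None fell by limma's test. The called gene made 1 of 5 tested, beside 5.72% of all genes called in either direction, 2.33% called higher and 3.39% called lower. At an unadjusted p under 0.05 Has3 joined Cd44 and no gene of the set was lower, while edgeR and DESeq2 each called Cd44 alone. Over all genes edgeR called 308 higher and 369 lower, and DESeq2 708 and 871. The share of all genes at that unadjusted threshold is not given here. Counts at it, also for the lists below, therefore have no background beside them. The groups did not overlap for Cd44 (higher) and Hyal2 (lower), where 18.4% of all tested genes did not overlap, 8.05% higher and 10.4% lower. The log2 fold changes of 3 tested members were above 0, against 51.5% of all genes, with a median of 0.14 over the 5 members and 0.02 over all genes. The plot of normalized counts by library shows each gene.

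**Figure D1:**
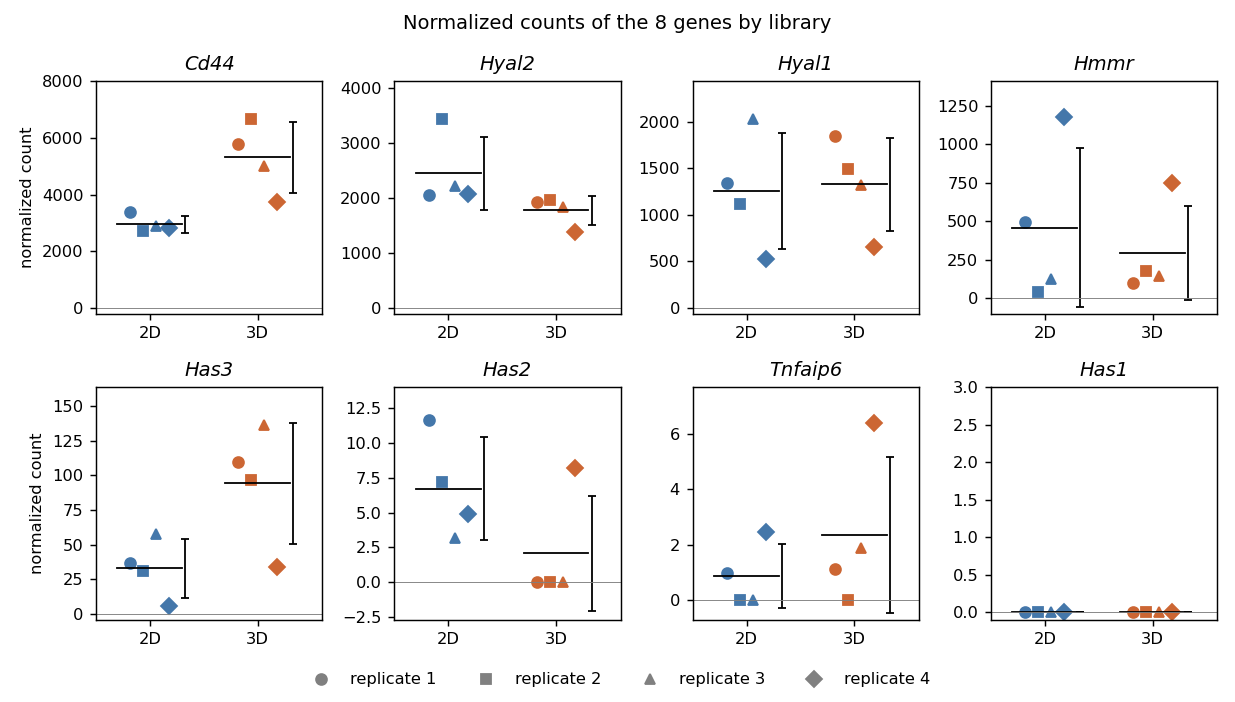
Normalized counts (y axes, linear, each panel with its own range) of the 8 genes on 2D and 3D collagen; each symbol is 1 library, bars are means and whiskers SD (n = 4 per group). The 3D libraries of Cd44 lie between 3749 and 6675, all above the 2D libraries, and Has1 is at 0 throughout.

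Cd44 (ENSMUSG00000005087.17; chromosome 2, 102811141 to 102901665, minus strand, mm10) encodes the hyaluronan receptor. Its normalized counts were 3388, 2712, 2883 and 2837 in 2D replicates 1 to 4 and 5802, 6675, 5019 and 3749 in 3D replicates 1 to 4. Every 3D library was above every 2D library, and 3D replicate 4 was the nearest to the 2D range. The mean went from 2955 ± 298 to 5311 ± 1242 (SD, n = 4 per group), a 1.76-fold rise in limma's fit (95% interval 1.31 to 2.37; log2 fold change 0.82, SE 0.19, limma adjusted p = 0.0380). These values rest on 11710 reads in the 2D and 22248 in the 3D libraries. The gene ranked above 92.2% of the tested genes by mean normalized count.

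Some markers of epithelium moved with the groups as Cd44 did, in the opposite direction. Epcam did not: it averaged 11.4 normalized counts on 2D and 10.2 on 3D collagen, and its groups overlapped. Krt19 and Cdh1 are covered only by the sum over the epithelial markers. The keratin genes Krt8, Krt18 and Krt7 were lower in every 3D library than in every 2D library, with log2 fold changes of −0.76, −0.43 and −0.41 (limma adjusted p = 0.0397, 0.136 and 0.183). The 6 epithelial markers summed to 9960 to 11269 CPM on 2D and 7931 to 10071 on 3D collagen, and 4 markers of ciliated cells to 53.9 to 78.3 and 8.53 to 61.5 CPM, of which Tekt1 and Ccdc39 were under 10 normalized counts in every library. The 4 oviduct secretory and Mullerian markers summed to 555 to 698 and 637 to 712 CPM. The part of these shifts in the Cd44 result was not tested.

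The size of the Cd44 difference moved little, and its call depended on single libraries. Without 1 library at a time the log2 fold change lay between 0.70 and 0.98. The call was kept without 2D replicate 1 (limma adjusted p = 0.0492) and without 3D replicate 4 (0.0187). It was lost without 2D replicates 2, 3 or 4 (limma adjusted p = 0.0623, 0.0788 and 0.0747) and without 3D replicates 1, 2 or 3 (0.108, 0.114 and 0.117). Fold changes varied with transcript GC content. Their medians ran from 0.33 (log2) in the quintile of tested genes lowest in GC to −0.22 in the highest quintile. The trend differed between libraries of a group. The lowest quintile had a median deviation from the mean of the 8 libraries of 0.43 in 2D replicate 1. It was −0.96 in 2D replicate 2 and 0.01 to 0.48 in the 3D libraries. Cd44, at 44.5% GC in its longest transcript, lies in the second-lowest quintile, whose median log2 fold change was 0.17. After the GC trends were removed its log2 fold change was 0.64 and did not pass (limma adjusted p = 0.108). Over all alternatives the adjusted p ranged from 0.00146 (DESeq2) to 0.117 (limma without 3D replicate 3). On the recovered reads, edgeR gave 0.88 on the log2 scale (edgeR adjusted p = 0.0278) and DESeq2 0.85 (DESeq2 adjusted p = 0.00146).

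**Figure D2:**
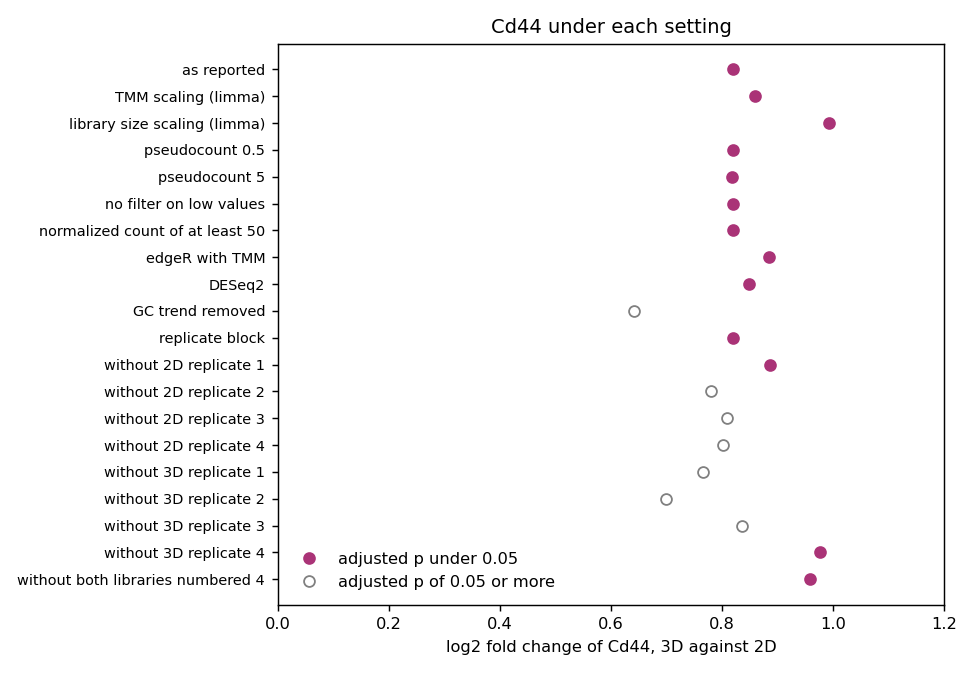
Log2 fold change of Cd44, 3D against 2D collagen (x axis), as reported and under 19 other settings (y axis); filled points have an adjusted p under 0.05 and open points do not. All values lie between 0.64 and 0.99, and the open points are the GC correction and 6 of the fits that leave out 1 library.

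Likeness, here and for the other members, was ranked by Pearson's r of log2(normalized count + 1) over the 8 libraries. Only tested genes with a descriptive symbol were ranked, without Gm, Rik, LOC or accession-like names. Of the 5 most like Cd44, the first were the adaptor Blnk (r = 0.97), the protein kinase A subunit Prkacb (0.97) and the receptor Cd300lb (0.96). The Golgi membrane protein Tmem165 (0.96) and the transcription factor Irf5 (0.96) followed. With each group's mean subtracted, r with Cd44 was 0.89 for Blnk, 0.85 for Prkacb, 0.86 for Cd300lb, 0.91 for Tmem165 and 0.82 for Irf5. Cd300lb was at 2.39 to 3.95 normalized counts in the 2D libraries and at 48.7, 55.0, 22.4 and 14.6 in 3D replicates 1 to 4. The 3D libraries stood in the same order as for Cd44, on 146 reads of Cd300lb in all. Ranked by that second r, the genes most like Cd44 were Birc3 (r = 0.95), an inhibitor of apoptosis, the transcription factor Irf1 (0.92) and again Tmem165. Among the set itself r with Cd44 was 0.74 for Has3, 0.39 for Hyal1, −0.45 for Hyal2 and −0.18 for Hmmr. These values describe 8 libraries and carry no test.

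As the gene that changed, Cd44 is shown with the 250 bases before its RefSeq start (GRCm38.p6, minus strand, chr2:102901666-102901915), written 5′ to 3′.
Cd44: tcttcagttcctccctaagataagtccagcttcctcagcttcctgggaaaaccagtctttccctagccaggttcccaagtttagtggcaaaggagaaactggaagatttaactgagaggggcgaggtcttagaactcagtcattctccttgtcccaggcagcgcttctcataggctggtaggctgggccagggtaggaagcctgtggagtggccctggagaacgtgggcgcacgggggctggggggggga
The window has 56.4% GC, where the median of 32851 such windows was 52.4%. Both strands were searched for 6 motifs, and none of them occurs in the Cd44 window. With bases just after the start added, 1 GC box occurs. The GC box, spelled GGGCGG, is held by 32.7% of all windows, and the CCAAT box, searched by the letters of its name, by 33.8%. The AP-1 site, spelled TGANTCA, is in 6.75% of them. The TCF/LEF site, spelled CTTTGAT, is in 3.21%. The cell cycle homology region, spelled TTTGAA, is in 5252 of the 32851 windows. The TATA box, spelled TATAAA, is in 12.4%. Matches of different motifs were counted separately, also where they overlap.

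Hmmr (chromosome 11, 40701395 to 40733422, minus strand), the receptor with a second role at the spindle, varied more between libraries of a group than between the groups. It had 494, 43.0, 129 and 1177 normalized counts in 2D replicates 1 to 4 and 99.7, 175, 147 and 748 in 3D replicates 1 to 4. The highest library of each group was replicate 4, and 2D replicate 2 was the lowest of all. The means were 461 ± 516 and 293 ± 305 (SD, n = 4 per group), with a log2 fold change of −0.19 (95% interval −2.44 to 2.06, limma adjusted p = 0.929), so changes of several fold in both directions lie within its error. Its direction turned without 2D replicate 1 (0.16), 2D replicate 4 (0.58) or 3D replicate 1 (0.17).

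Of 16 spindle and mitosis genes set beside Hmmr, all 16 were tested and limma called 0 higher and 0 lower, with a median log2 fold change of 0.12; edgeR and DESeq2 called 0, and 0 reached an unadjusted p under 0.05. Their median deviation from the mean of the 8 libraries (log2) was 1.34 in 2D replicate 4 and 1.73 in 3D replicate 4, and between −0.98 and −0.14 in the other 6. Hmmr's own deviation was 2.39 and 1.73 in the libraries numbered 4 and −2.35 in 2D replicate 2, where the list stood at −0.87. The mitotic kinases Aurka and Plk1 were the most abundant of the list per kilobase. Aurka had 5369 normalized counts in 2D replicate 4 and 3963 in 3D replicate 4, against 724 to 1641 in the other libraries. The genes most like Hmmr over the 8 libraries were Top2a, the mitotic topoisomerase (r = 0.99), and Dkc1, a pseudouridine synthase (0.98). Like Hmmr (41.8% GC), genes in the lowest GC quintile were low in 2D replicate 2, with a median deviation of −0.96. After the GC trends were removed the log2 fold change of Hmmr was −0.45 (limma adjusted p = 0.766).

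**Figure D3:**
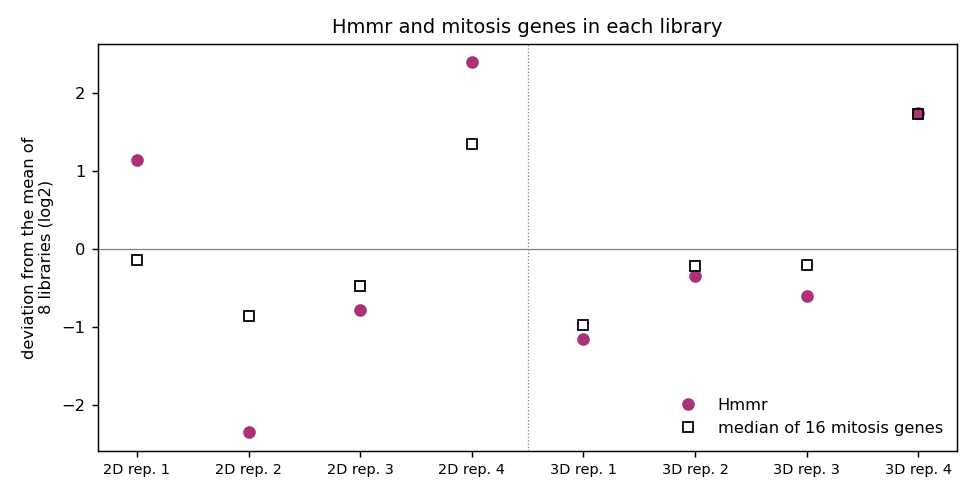
Deviation of log2(normalized count + 1) from the mean of the 8 libraries (y axis) in each library (x axis) for Hmmr (filled) and as the median of 16 mitosis genes (open). Both are highest in the libraries numbered 4 (1.34 to 2.39), and Hmmr is lowest in 2D replicate 2 at −2.35.

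The 250 bases before the RefSeq starts of Hmmr (GRCm38.p6, minus strand, chr11:40733438-40733687) and of Top2a, its most similar gene (minus strand, chr11:99024190-99024439), are shown because they share a repeated motif. Capitals mark the CCAAT box on either strand, read as CCAAT or ATTGG.
Hmmr: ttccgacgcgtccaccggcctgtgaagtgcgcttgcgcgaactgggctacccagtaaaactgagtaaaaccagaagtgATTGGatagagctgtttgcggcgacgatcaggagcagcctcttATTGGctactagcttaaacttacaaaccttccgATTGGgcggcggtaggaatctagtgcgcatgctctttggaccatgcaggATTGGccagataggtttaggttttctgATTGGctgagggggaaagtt
Top2a: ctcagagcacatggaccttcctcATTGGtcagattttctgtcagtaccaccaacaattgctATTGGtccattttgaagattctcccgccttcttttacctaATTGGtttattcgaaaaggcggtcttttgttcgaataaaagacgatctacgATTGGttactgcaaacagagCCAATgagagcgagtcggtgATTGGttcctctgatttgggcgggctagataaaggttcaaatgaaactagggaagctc
The Hmmr window holds 5 CCAAT boxes and the Top2a window holds 6. At least 5 occur in 0.213% of all windows and at least 6 in 0.0578%. Of the 13 mitosis genes with a window in the RefSeq table, 10 held at least 1 CCAAT box and 6 at least 2, against 33.8% and 10.1% of all windows. The 13 include Top2a, which is shown above because of this motif and so adds to both counts by choice. A match is a description of these letters and not a site shown to be bound.

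The 3 synthases, which make hyaluronan, were all low. Has3 (chromosome 8, 106870242 to 106884566, plus strand) was the most abundant, with 37.0, 31.1, 57.7 and 6.13 normalized counts in 2D replicates 1 to 4 and 109.8, 96.9, 136 and 33.8 in 3D replicates 1 to 4. In 3 of the 4 3D libraries it exceeded every 2D value, and the groups overlapped through 3D replicate 4. The means were 32.98 ± 21.2 and 94.2 ± 43.4 (SD, n = 4 per group), a log2 fold change of 1.67 (95% interval 0.14 to 3.19) that did not pass over all genes (limma adjusted p = 0.174). The difference rests on 142 reads in the 2D and 391 in the 3D libraries. It was 1.03 without 2D replicate 4 (limma adjusted p = 0.248), the library with 5 reads. Chtf8, on the opposite strand, overlaps 5.52% of the exonic bases of Has3 and had 41879 reads in all libraries, and since the strand setting of the counting is not given, reads in that overlap cannot be told apart. The genes most like Has3 were the membrane-bound matrix protease Mmp14 (r = 0.99) and the glycolysis regulator Pfkfb3 (0.99).

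Has2 (chromosome 15, 56665627 to 56694539), the synthase of cumulus expansion and of heart development, had 12, 6, 4 and 4 reads in 2D replicates 1 to 4 and 0, 0, 0 and 9 reads in 3D replicates 1 to 4. Normalized, these were 11.7, 7.17, 3.16 and 4.90 on 2D collagen and 8.23 in 3D replicate 4. It was seen in all 2D libraries and in 1 of the 3D libraries, whose value lay inside the 2D range. A count of 0 allows up to 3 reads, or 0.141 to 0.171 CPM in those 3 libraries, for counting error only. With no filter on low values its log2 fold change was −2.03 (limma adjusted p = 0.170). The antisense gene Has2os (Has2as in the deposited values, 11 reads in all) overlaps 4.30% of its exonic bases, and its reads there cannot be told apart either. Has1 (chromosome 17, 17843323 to 17855205) had 0 reads in all 8 libraries, which allows at most 0.116 to 0.191 CPM per library.

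Hyaluronan precursors are UDP-glucuronate, made by Ugdh, and UDP-N-acetylglucosamine, made through Gfpt1, Gnpnat1, Pgm3 and Uap1. Of 8 genes of this supply, 7 were tested, 0 were called by limma, edgeR or DESeq2, and 6 had log2 fold changes above 0 (median 0.36). At an unadjusted p under 0.05, 2 were higher, Ugp2 (log2 fold change 1.08) and Gfpt1 (0.43), both named after their values were seen. The share of all tested genes at that threshold is not given here, so this count has no background beside it. The most abundant per kilobase were Uap1l1 and Ugdh. Ugdh had 4941 ± 1169 normalized counts on 2D and 6418 ± 2055 on 3D collagen (SD, n = 4 per group), with 0.36 as log2 fold change (limma adjusted p = 0.423).

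The hyaluronidases were abundant. Hyal2 (chromosome 9, 107567945 to 107572779, plus strand) had 2058, 3435, 2222 and 2076 normalized counts in 2D replicates 1 to 4 and 1923, 1955, 1838 and 1389 in 3D replicates 1 to 4. All 3D libraries were below all 2D libraries, by a margin of 2058 to 1955 at the nearest, and 2D replicate 2 stood far above the rest. The means were 2448 ± 662 and 1776 ± 263 (SD, n = 4 per group), with a log2 fold change of −0.44 (95% interval −0.89 to 0.01, limma adjusted p = 0.216). Without 2D replicate 2 it was −0.27 (limma adjusted p = 0.349), and −0.28 after the GC trends were removed. Hyal2 has 55.2% GC, in the second-highest quintile, whose genes had a median deviation of 0.29 in 2D replicate 2. The genes most like Hyal2 were the clathrin adaptor Ap1m1 and the adaptor Sh2b1 (r = 0.99 for both).

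Hyal1 lies in the same cluster (chromosome 9, 107576927 to 107581710, plus strand). It had 1337, 1119, 2029 and 528 normalized counts in 2D replicates 1 to 4 and 1847, 1494, 1317 and 653 in 3D replicates 1 to 4. The groups overlapped, and the lowest library of each was replicate 4. The log2 fold change was 0.14 (95% interval −0.83 to 1.12, limma adjusted p = 0.874), and it was −0.22 without 2D replicate 4 and −0.05 without 3D replicate 1. In GENCODE, Naa80 (Nat6 in the deposited values, 13262 reads in all libraries) overlaps 50.8% of the exonic bases of Hyal1 on the same strand. Hyal3 overlaps 4.21%. The authors' counting could have dropped shared reads or given them to another gene. All values came out as whole reads, so none were split in fractions. The level of Hyal1 per kilobase and the ratios with it carry that uncertainty. Across libraries Hyal1 moved with Has3 (r = 0.79, and 0.95 with group means subtracted), both being low in the libraries numbered 4. The genes most like Hyal1 were Zhx3, which encodes a zinc finger and homeobox protein, and the activin receptor gene Acvr1b (r = 0.98 for both).

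Of 11 other genes of hyaluronan turnover and uptake 7 were tested, and limma, edgeR and DESeq2 called 0, as did an unadjusted p under 0.05 (median log2 fold change 0.18). The lysosomal enzymes Hexa and Gusb, which remove single sugars, were the most abundant per kilobase. Hexa had 5621 ± 2044 and 6290 ± 2486 normalized counts on 2D and 3D collagen, and Gusb 3694 ± 286 and 3250 ± 308 (SD, n = 4 per group). The Cemip2 row (a surface hyaluronidase, Tmem2 in the deposited values) had a log2 fold change of 0.20. Hyal4 and Spam1 had 0 reads, as Has1 did.

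Tnfaip6 (chromosome 2, 52038009 to 52056686) had 1, 0, 0 and 2 reads in 2D replicates 1 to 4 and 1, 0, 2 and 7 in 3D replicates 1 to 4. No difference was detectable at this depth. Of 20 other hyaluronan-binding matrix and receptor genes, 7 were tested. Limma, edgeR and DESeq2 called 0, and 1, Itih4, was lower at an unadjusted p under 0.05 (log2 fold change −0.75, limma adjusted p = 0.202). The pentraxin Ptx3, which TSG-6 works with in the cumulus, was at 0 reads. The most abundant per kilobase were Tlr2, an innate receptor activated by hyaluronan fragments, and the intracellular protein gene Habp4. Tlr2 had a log2 fold change of 0.20, and Habp4 went from 446 ± 34.9 to 357 ± 20.5 normalized counts (SD, n = 4 per group; log2 fold change −0.32, limma adjusted p = 0.233).

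Levels of different genes were compared as normalized counts per kilobase of GENCODE exon. On 2D collagen the order was Hyal2 (743 ± 201), Cd44 (436 ± 43.9), Hyal1 (332 ± 164), Hmmr (84.8 ± 95.0), Has3 (5.17 ± 3.33), Has2 (1.59 ± 0.870), Tnfaip6 (0.501 ± 0.677) and Has1 (0). Only Hyal2 and Cd44 were neighbours whose 2D ranges did not overlap. On 3D collagen the order began with Cd44 (784 ± 183), Hyal2 (539 ± 79.8) and Hyal1 (352 ± 133), followed by Hmmr (53.9 ± 56.2) and Has3 (14.8 ± 6.81). There the ranges of Cd44 and Hyal2 overlapped, but Cd44 was the higher in 4 of 4 libraries.

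The ratio of Cd44 to Hyal2 within a library, which does not depend on the scaling between libraries, was 0.800, 0.384, 0.631 and 0.664 in 2D replicates 1 to 4 and 1.47, 1.66, 1.33 and 1.31 in 3D replicates 1 to 4. Per kilobase, the receptor was below the hyaluronidase in every 2D library and above it in every 3D library. That crossing of 1 depends on the exon lengths used, 6776 bases for Cd44 and 3293 for Hyal2. By normalized counts not divided by length, Cd44 was above Hyal2 in 2D replicates 1, 3 and 4 too. The fold between the groups does not depend on length. The ratio was 2.40-fold higher on 3D collagen (exact two-sided permutation p = 0.0286, the smallest that 4 against 4 libraries can give; adjusted p = 0.143 over the 10 ratios of tested members). The ratio of Has3 to Hyal1 was also without overlap, 0.00687 to 0.0168 on 2D and 0.0307 to 0.0612 on 3D collagen (exact permutation p = 0.0286, adjusted p = 0.143). No ratio passed after adjustment. Both ratios are singled out here after their values were seen. The members of a ratio differ in GC content, and 2D replicate 2 had the lowest ratio of Cd44 to Hyal2.

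**Figure D4:**
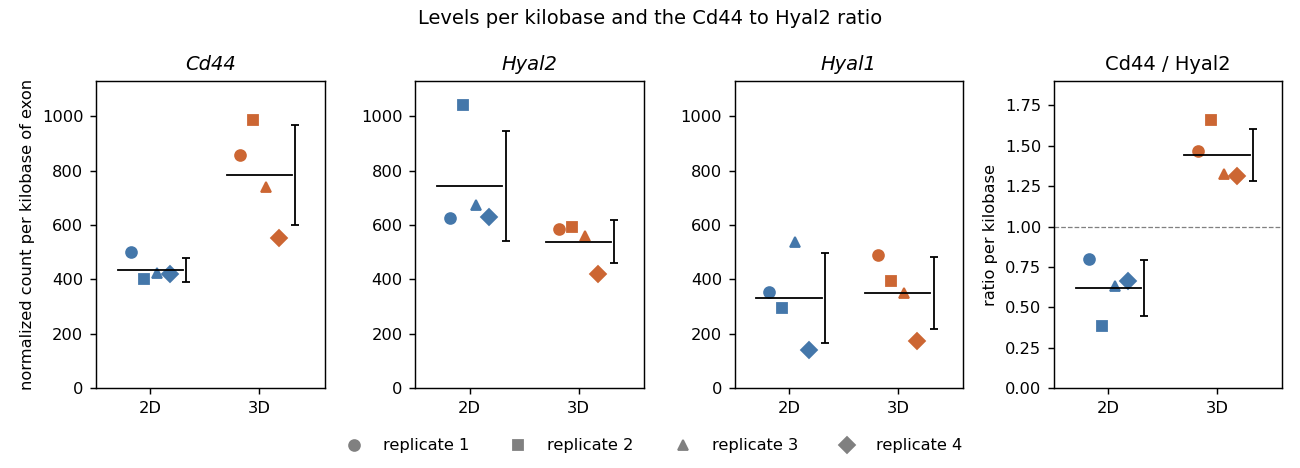
Normalized counts per kilobase of exon of Cd44, Hyal2 and Hyal1 (first 3 panels, 1 shared scale) and the ratio of Cd44 to Hyal2 (last panel, dashed line at 1) on 2D and 3D collagen; symbols are libraries, bars means and whiskers SD (n = 4 per group). The ratio lies between 0.384 and 0.800 in the 2D libraries and between 1.31 and 1.66 in the 3D libraries.

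Genes that work with CD44 at the membrane were taken from a list of 16 linkers, partners and ligands, all tested. Of these 2 (12.5%) fell and 0 rose in limma, where 3.39% of all tested genes were called lower, with a median log2 fold change of −0.14, and edgeR called the same 2. Egfr, the EGF receptor, had 2133, 2270, 2288 and 1716 normalized counts in 2D replicates 1 to 4 and 1075, 881, 818 and 850 in 3D replicates 1 to 4. It fell from 2102 ± 266 to 906 ± 115 (SD, n = 4 per group). Its log2 fold change was −1.21 (SE 0.15) at a limma adjusted p of 0.00438, and it passed without any single library. Vav2, a guanine nucleotide exchange factor, fell from 3657 ± 932 to 1732 ± 291 (log2 fold change −1.06, limma adjusted p = 0.0225). Its call was lost without 2D replicate 3 or 3D replicate 1 or 3 (limma adjusted p = 0.0548, 0.0733 and 0.0845).

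At an unadjusted p under 0.05, 4 of the 16 were higher and 4 lower. DESeq2 called 1 higher, Spp1, and 4 lower, where it called 708 genes higher and 871 lower in all. Spp1, the gene of the CD44 ligand osteopontin, is named after its values were seen. It had 17523 normalized counts on average on 2D and 49036 on 3D collagen (log2 fold change 1.83, limma adjusted p = 0.0893), and the groups overlapped. The linkers ezrin (Ezr), radixin (Rdx) and moesin (Msn) had log2 fold changes of −0.09, 0.33 and 0.03, with limma adjusted p of 0.778, 0.755 and 0.939.

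CD44 is cut at the surface by metalloproteases and then in the membrane by gamma-secretase. Of 10 genes of these enzymes, limma and edgeR called 0, and DESeq2 called 1 lower, where it called 871 genes lower in all. At an unadjusted p under 0.05, 2 were higher and 2 lower (median log2 fold change over the 10 genes 0.00). The gelatinase Mmp2, among the most abundant per kilobase, had 14123 ± 5223 normalized counts on 2D and 11562 ± 3405 on 3D collagen (SD, n = 4 per group; log2 fold change −0.26, limma adjusted p = 0.681). Mmp14, which sheds CD44, went from 2572 ± 691 to 3866 ± 727 (log2 fold change 0.61, limma adjusted p = 0.168).

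Alternative splicing gives CD44 its standard and variant forms, which gene-level values do not separate. Of 10 splicing factors that act on CD44 or related exons, 9 were tested and 1 (11.1%) fell in limma, beside 3.39% of all tested genes called lower, so that 1 gene makes up the share (median log2 fold change 0.33). edgeR called the same gene. DESeq2 called 1 lower and 1 higher, where it called 871 genes lower and 708 higher in all, and an unadjusted p under 0.05 gave 2 lower and 3 higher. Esrp2, an epithelial splicing regulator, had 229, 373, 250 and 252 normalized counts in 2D replicates 1 to 4 and 134, 143, 117 and 101 in 3D replicates 1 to 4. It fell from 276 ± 65.3 to 124 ± 18.8 (SD, n = 4 per group; log2 fold change −1.14, SE 0.23, limma adjusted p = 0.0258). The call was lost without 2D replicate 3 or any one of 3D replicates 1 to 4, at limma adjusted p from 0.0540 to 0.0969. Its paralog Esrp1 was near 0, at 2.73 normalized counts on average on 2D and 0.218 on 3D collagen. The abundant factors Ptbp1 and Srsf1 had log2 fold changes of −0.55 and −0.12 (limma adjusted p = 0.173 and 0.869).

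**Figure D5:**
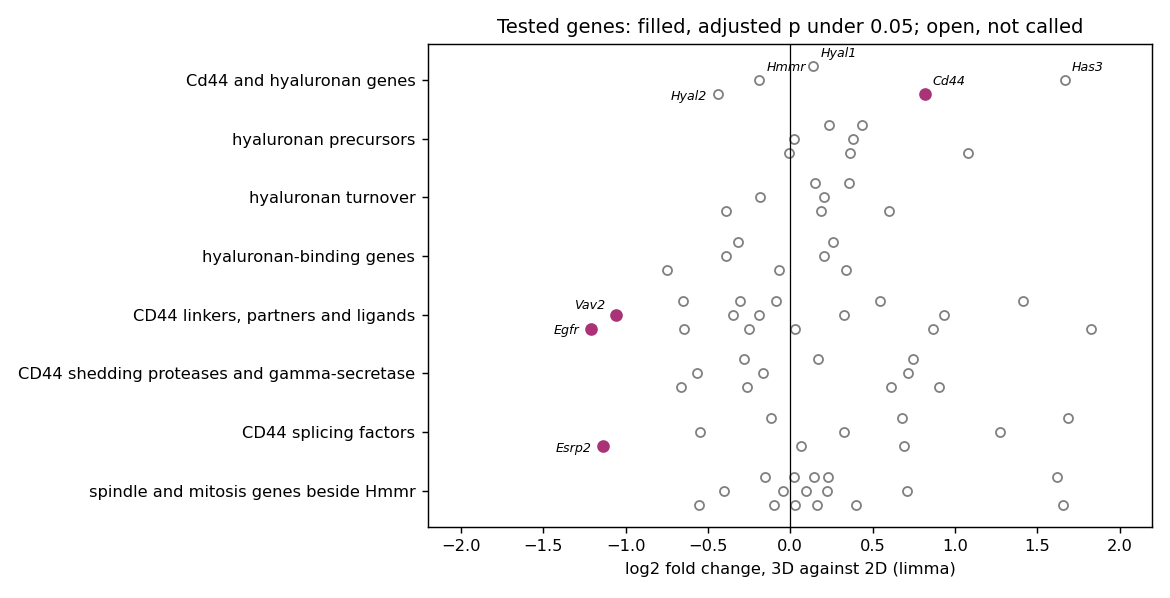
Log2 fold change, 3D against 2D collagen (x axis), of each tested gene of the set and of 7 related lists (y axis; points are spread vertically for legibility); filled points passed limma's test and open points did not. Cd44 is filled at 0.82, and the filled points of the lists are Egfr at −1.21, Vav2 at −1.06 and Esrp2 at −1.14.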

How the data were processed

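RNA of 8 libraries, 4 per group, was isolated with TRIzol and purified on a Qiagen column, per the labels' protocols. Per the submitters' processing notes, HTSeq 0.6.1p1 and DESeq2 were used with mm10. For the aligner, the annotation and the strand setting, the entry is: not given in the sources used here. The authors deposited a normalized signal per gene. In every library 100.0% of its values were whole multiples of 1 read within 0.001 reads, and recomputed size factors (median of ratios) differed from the divisors by at most 1.9e-09, so the values are reads divided by 1 size factor per library.

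Genes with at least 10 normalized counts in at least 4 libraries were tested with limma 3.58.1 in R 4.3.3, without covariates. The fit used log2 values after adding 1 to each count (trend and robust options), a scale that shrinks fold changes at low counts. Adjustment over all tested genes followed the Benjamini-Hochberg method at 0.05. edgeR 4.0.16 (quasi-likelihood test with TMM) and DESeq2 1.42.0 were run on the recovered reads. The limma and edgeR fits were also run on simulated counts without GC trends. Their outcome is not given here, and no result rests on it.

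Positions, exon lengths and transcript GC content came from GENCODE M21 on GRCm38, the mm10 build. Symbols of 22865 rows matched, 1904 of them through an older symbol, and 11712 of 11820 tested genes had a GC value. GC trends were removed per library by lowess (span 30%). Promoter windows came from RefSeq (GRCm38.p6), which held 6 of the 8 members. The members, the lists and the rules were chosen with earlier results of these data known. Named list genes were those past the threshold (up to 4 per list), and, where fewer than 2 passed, also the 2 most abundant per kilobase, of which 1 gene is not reported here. Similar genes were the 5 nearest to Cd44 and the 2 nearest to each other tested member, among tested genes with a descriptive symbol. Ratios between members, the motifs, the fit without both libraries numbered 4 and some genes named as such were chosen after the values were seen.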

Additional observations from a re-analysis of the deposited data

Results flagged for a closer look

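In 3 of 14 groups of 4 libraries of the set's genes, 1 library stood apart from the other 3 by a gap whose share of the group's range exceeded Dixon's 95% critical value, where chance gives about 1 in 20 groups. Hmmr had 748 normalized counts in 3D replicate 4, against 99.7 to 175 in the other 3D libraries. Hyal2 had 3435 in 2D replicate 2, against 2058 to 2222 in the other 2D libraries. Has2 had 8.23 in 3D replicate 4 (9 reads) and 0 in the other 3D libraries. With 3 libraries at 0, any value above 0 in the other would stand apart in this way, so Has2 is not to be read against that chance rate.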

How the results depend on the processing

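Under the 19 alternatives Cd44 kept its direction, with a log2 fold change from 0.64 (GC trends removed, limma adjusted p = 0.108) to 0.99, and from 0.70 to 0.98 without 1 library, where 6 of 8 fits lost the call. Has3 and Hyal2 kept their directions too. Those of Hyal1 and Hmmr turned when a library was left out (log2 fold changes from −0.22 to 0.45 and from −1.005 to 0.58). The count of called members was 0 with GC trends removed, 0 to 1 without 1 library and 2 with the replicate block.

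Over all genes limma called 676 (59.3% lower). The count was 1087 with GC trends removed, 1579 in DESeq2, 148 to 617 without 1 library, and 447 without both libraries numbered 4. Fits that left out libraries tested the same genes on fewer libraries. When values were scaled to library size alone, the median over all genes went from 0.02 to 0.19, and 498 were higher and 318 lower (39.0% lower). With the replicate number as a block 1405 were called, and Has3 passed (limma adjusted p = 0.0129). Nothing in the labels says that numbers pair libraries. Deviations from the group means of same-numbered libraries correlated at −0.17, 0.37, 0.25 and 0.81 for numbers 1 to 4. Not every library correlated best with its own number. Such correlations cannot decide whether libraries were paired, so the block is given only as an alternative setting. Other causes of these shifts were not tested. Depth limits Has1, Has2, Tnfaip6 and, in 2D replicate 4, Has3.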
